A study of Mus musculus with 24 samples.

Results

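The regions described here are 1393 stretches of open chromatin in mouse bone marrow progenitors that lay away from gene ends, carried the transcription factor PU.1 and lacked the histone mark H3K4me1. They were chosen from the deposited peak lists. Peaks of the 2 ATAC-seq libraries labelled set B, Utx WT, empty construct were merged, and 42841 autosomal regions had a peak in both. Of these, 30975 lay more than 1 kb from either end of any protein-coding RefSeq gene span in build mm10, and 17954 of the distal regions overlapped a PU.1 peak in all 3 Utx WT libraries. The 1393 regions overlapped an H3K4me1 peak in neither Utx WT library. They made up 3.25% of the open regions, 4.50% of the open distal regions and 7.76% of the open distal regions with PU.1. The choice rested on the Utx WT lists of openness, PU.1 and H3K4me1, so at these regions those lists enter no test; 2 tests of Utx WT empty libraries below are at sites whose openness was chosen in set A, by the same PU.1 and H3K4me1 lists. Another 1837 open distal regions with PU.1 in all 3 libraries carried H3K4me1 in 1 of the 2 Utx WT libraries and belong to no class here.

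PU.1, encoded by Spi1, is an ETS-family factor that binds purine-rich GGAA sites and is needed for myeloid and B lymphoid development. H3K4me1 is deposited by the KMT2C and KMT2D complexes, which contain the demethylase UTX, and it lies on most enhancers, often before they become active. BRG1, encoded by Smarca4, is an ATPase of the BAF remodelling complexes that open chromatin, and CHD4 is the ATPase of the NuRD complex, known mainly for restricting access at regulatory DNA.

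The cells were lineage-depleted bone marrow progenitors of C57BL/6 mice. ChIP-seq peaks were available for H3K4me1 in 2 Utx KO and 2 Utx WT libraries and for PU.1 in 3 Utx KO and 3 Utx WT libraries. ATAC-seq peaks, which mark DNA accessible to the Tn5 transposase, came from 2 sets of Cas9-expressing cells with 2 libraries per group. Set B held Utx KO cells with a Smarca4 guide RNA, Utx KO cells with the empty construct, Utx WT cells with the Smarca4 guide and Utx WT cells with the empty construct, while set A held Utx WT cells with a Chd4 guide and Utx WT cells with the empty construct. A single guide per gene was named in the labels, and no value in the lists measures how completely it edited its target. The culture protocol, written on the set A samples though it names Brg1 editing, gives 7 days in semi-solid medium, 5 days in liquid culture and ATAC-seq 6 days after transduction; the ChIP labels describe no such culture, so the ChIP and ATAC cells may not be the same state. Age, sex and the means of Utx deletion were not given in the sources used here, nor was it said whether replicates came from separate mice, so p-values measure the spread between libraries only.

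The lists differ in length. ATAC lists ran between 24833 peaks (Chd4 guide, replicate 2) and 50927 peaks (set B Utx WT empty, replicate 2), and the KO Smarca4 guide replicate 2 list, at 29930 peaks, was the shortest of set B. Read depth is unknown, so a region without a peak is one that was not called, and a weaker signal cannot be told apart from a shallower library. The 2 sets also differed in the genes with a peak within 1 kb of a gene end. Of 6 myeloid marker genes, set A empty had peaks at 6 in both libraries and set B Utx WT empty at 2 in both; Csf1r, Elane, Mpo and Itgam were without one in set B Utx WT empty. Of 20 granulocyte genes, set A empty libraries had peaks at 19 and 18 and set B Utx WT empty libraries at 6 in each; with the edited libraries included the counts were 17 to 19 in set A and 3 to 7 in set B. All 8 progenitor markers had a peak in the empty libraries of both sets. Of the 4 markers each for erythroid, B cell, T cell and stromal cells, 2, 2, 1 and 2 had a peak in both set B Utx WT empty libraries and 2, 2, 0 and 2 in both set A empty libraries. Without a peak in set B Utx WT empty were Gata1 and Hbb-b1, while Klf1, Epor and the T cell gene Cd3e had one.

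For sequence, only RefSeq promoter windows were at hand, each running from 250 bases before to 50 after an annotated start. Although the regions are distal to the ends of protein-coding genes, 36 of them overlapped such a window, at internal starts of coding genes such as Gabpb1, Jmjd1c, Pan3, Phip, Kdm4c and Larp4 or at starts of long noncoding RNAs. Of 39 windows, 15 belonged to coding genes and 24 to lncRNAs, and 27 lay inside a region by 250 bases or more. The string GAGGAAGT, a form of the site that PU.1 prefers, was searched on both strands (reverse ACTTCCTC). It was in 3 of those 27 windows (11.1%) and in 1020 of all 31365 autosomal windows (3.25%). No test was run, and 3 windows are too few to show enrichment. All 3 were lncRNA windows, and among the 27 those at Gabpb1 and those at Gm41331 overlapped each other. The 3 windows are shown because they are the stretches of these regions in which both the DNA and a PU.1-type string can be read. Capitals mark the string. Each sequence runs 5′ to 3′ along the named gene's strand in GRCm38.p6.
Gm6634, chr3:70807242-70807541, minus strand: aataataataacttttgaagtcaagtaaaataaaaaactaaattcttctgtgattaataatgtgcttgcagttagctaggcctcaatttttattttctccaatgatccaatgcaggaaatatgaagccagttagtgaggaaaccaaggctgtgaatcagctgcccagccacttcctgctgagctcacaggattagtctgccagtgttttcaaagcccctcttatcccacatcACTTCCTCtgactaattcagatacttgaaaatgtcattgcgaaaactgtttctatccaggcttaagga
Gm41331, chr15:60141576-60141875, plus strand: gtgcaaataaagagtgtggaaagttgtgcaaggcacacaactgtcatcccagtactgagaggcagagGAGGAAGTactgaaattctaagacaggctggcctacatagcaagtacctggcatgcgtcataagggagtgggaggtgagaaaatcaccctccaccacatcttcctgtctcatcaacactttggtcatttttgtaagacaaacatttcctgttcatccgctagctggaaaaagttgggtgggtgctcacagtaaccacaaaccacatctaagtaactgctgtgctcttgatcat
Gm30926, chr14:22801315-22801614, minus strand: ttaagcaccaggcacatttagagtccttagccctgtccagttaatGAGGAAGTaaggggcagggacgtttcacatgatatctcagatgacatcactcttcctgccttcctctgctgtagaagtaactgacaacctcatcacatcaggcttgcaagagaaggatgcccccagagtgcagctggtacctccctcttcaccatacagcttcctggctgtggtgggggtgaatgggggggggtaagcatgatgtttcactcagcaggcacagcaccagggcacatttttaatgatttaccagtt

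All 3 lncRNA windows lay in regions open in most ATAC libraries: 11 of 12 for Gm6634, 12 of 12 for Gm41331 and 11 of 12 for Gm30926. PU.1 was called in 3, 1 and 3 of the 3 Utx KO libraries at these regions, in that order. The Gm30926 region lies inside the gene span of Lrmda, and the nearest Utx WT H3K4me1 island was 16836 bp away. At Gm6634 that distance was 30867 bp and at Gm41331 it was 190222 bp. The 36 regions with a promoter window had a median width of 691.5 bp, and 16 of them (44.4%) were open in all 12 ATAC libraries.

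These were narrow sites with PU.1 islands of middling rank. Their median width was 427 bp (quartiles 339 and 551 bp), against 599 bp at the 14724 open distal sites with both PU.1 and H3K4me1, 474 bp at the 3693 with H3K4me1 and no PU.1, and 423 bp at the 4545 with neither. The PU.1 island over a region stood at a median percentile of 50.6 in the Utx WT lists (quartiles 33.9 and 68.8, mean of the 3 lists), against 83.1 at sites with both. Where PU.1 was also called in Utx KO, the islands stood at median percentiles of 61.9, 56.6 and 61.3 in the 3 Utx KO lists. These medians leave out regions without a call (1324, 1197 and 1288 remained), so a rise cannot be read from them. Sites with both stood at 87.0, 84.4 and 87.1 in Utx KO and at 83.1, 83.9 and 83.7 in Utx WT. Only 52 regions (3.73%) stood in the top 10% of the Utx WT lists, against 5282 (35.9%) of the sites with both. No test was run on these features, since the classes were cut from the same lists. Across distal sites, PU.1 went with H3K4me1: 71.7% of the open distal sites with H3K4me1 in both Utx WT libraries had PU.1 in all 3, against 20.8% of those with H3K4me1 in neither.

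**Figure D1:**
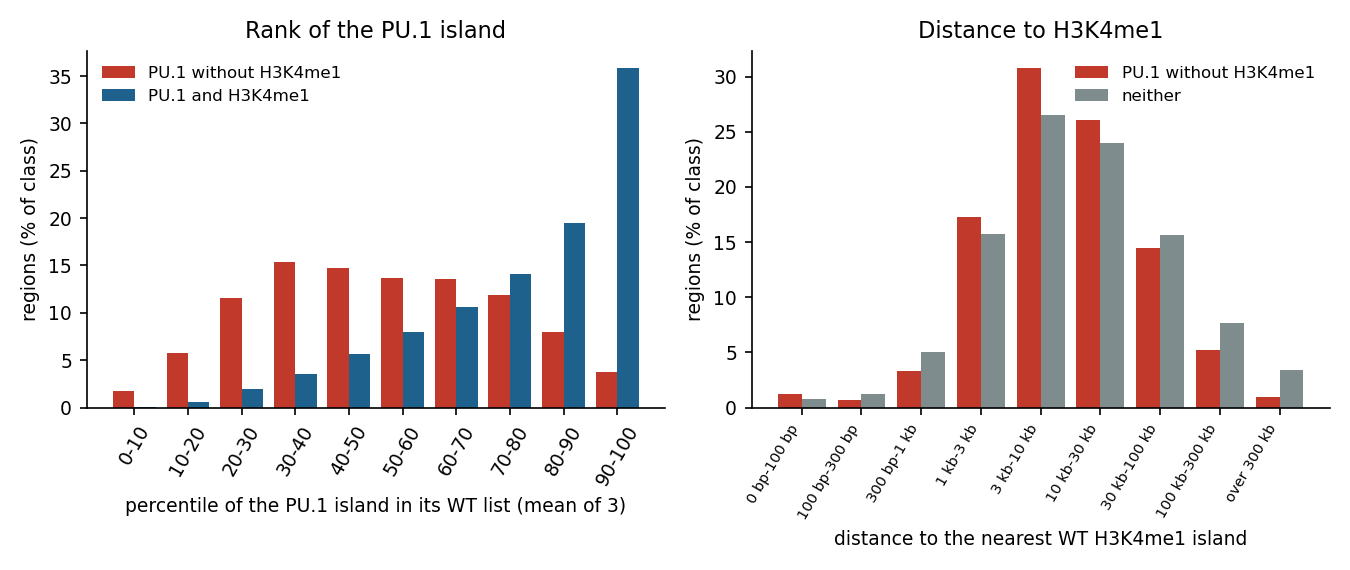
Left, percentile of the PU.1 island in the Utx WT lists (mean of 3 lists) for the 1393 regions with PU.1 and without H3K4me1 and the 14724 sites with both. Right, distance to the nearest Utx WT H3K4me1 island for the 1393 regions and the 4545 with neither mark; bars are percent of each class, and the 1393 regions spread over all PU.1 ranks with 3.73% in the top 10%, against 35.9% of the sites with both.

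Most regions were well away from marked chromatin, not gaps inside it. The nearest H3K4me1 island of either Utx WT library was a median of 8970 bp away (quartiles 3397 and 24954 bp). An island lay within 5 kb of 489 regions (35.1%) and on both sides within 5 kb of 97 (6.96%), while 904 (64.9%) had none within 5 kb. The regions nearest to an island without touching one were 1 bp away at Larp4, 3 bp at Klrb1c and 4 bp at Jmjd1c, and the smallest overlaps that kept a site out were 7 bp, at Asic2, Mep1a and Napg. At the other threshold, regions at Mroh2a, Gm34066 and Trmt10a lay 1033, 1034 and 1056 bp from a gene end, and sites at Prcc, Kif12 and Dcaf5, at 964, 960 and 956 bp, were left out. With them 262 open sites with the same marks lay at gene ends.

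The regions were also more often outside genes. A protein-coding span held 615 of them (44.1%), against 61.3% of sites with PU.1 and H3K4me1, 70.5% of those with H3K4me1 alone and 50.6% of those with neither. Of the regions, 154 (11.1%) lay over 100 kb from any such gene, against 4.06% of sites with both. A lncRNA gene overlapped 187 (13.4%), close to the 14.3% at sites with both. The regions were scattered, with a median of 345061 bp to the next one, and 112 (8.04%) lay within 20 kb of another. Their share of open distal sites was highest on chromosome 3 (115 of 1759, 6.54%) and lowest on chromosome 19 (24 of 815, 2.94%).

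The first comparison asks what became of these regions in Utx KO cells. In the Utx KO empty libraries 76.0% and 77.1% were open. In both libraries 972 had a peak (69.8%, against 75.5% of all open regions), and 233 (16.7%) were open in neither, which is called closed here. Over all 42841 open regions 15.5% were open in neither Utx KO library, so the regions closed at about the rate of open chromatin at large. The corresponding shares were 17.2% at sites with PU.1 and H3K4me1, 26.0% at sites with H3K4me1 alone and 22.7% at sites with neither. Because regions were required to be open in both Utx WT empty libraries, part of any loss is built in. Chosen from 1 Utx WT empty library only, 66.9% to 68.5% of regions were open in the Utx KO empty libraries, against 81.9% and 83.1% in the Utx WT empty library left out. The Utx KO values were below both Utx WT values. A separate choice allows a test without the choosing ATAC libraries. It still rests on Utx WT cells, so sites open only in Utx KO are left out and the Utx WT side is favoured. Among 1334 distal sites chosen by the same marks but by openness in both set A empty libraries, Utx KO empty libraries were open at 36.4% and 35.8% and Utx WT empty libraries at 42.0% and 41.5%. The difference was -5.62 percentage points, with no overlap between the groups (exact permutation test, two-sided, p = 0.333, adjusted p = 0.333 over 5 tests, the smallest 2 against 2 libraries allow). With the ATAC, PU.1 and H3K4me1 lists each trimmed to the shortest of their kind and the sites chosen again, the difference turned to 2.51. Trimming kept the widest ATAC peaks, since those lists carry no score.

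The region of highest PU.1 rank was among those closed. It lies in Acoxl, which encodes an acyl-CoA oxidase-like protein, at chr2:128008689-128009158, 470 bp wide and 31642 bp from the nearest Utx WT H3K4me1 island, and its PU.1 island stood at a mean percentile of 99.9 in Utx WT. It had no ATAC peak in the 2 KO Smarca4 guide libraries or the 2 Utx KO empty libraries, and a peak in both libraries of every Utx WT group, in set A and set B alike. PU.1 was nonetheless called there in all 3 Utx KO libraries. The closed region next in rank lies 6540 bp from Rpusd4, a mitochondrial pseudouridine synthase gene (chr9:35282497-35282843, percentile 96.1). It was open in no other set B library than the 2 Utx WT empty ones, and PU.1 was again called in all 3 Utx KO libraries.

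PU.1 calls and openness in Utx KO did not move together over the whole set. Of the 233 regions closed in both Utx KO empty libraries, 194 (83.3%) kept PU.1 in all 3 Utx KO ChIP libraries, and of the 972 open in both, 809 (83.2%) did. The closed regions were narrower in Utx WT, with a median of 346 bp against 460 bp at those that were open in both, and their PU.1 percentiles were alike, with medians of 53.4 and 50.7. These are descriptions across regions of the same libraries, and the ChIP cells were not described as cultured.

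In PU.1 ChIP-seq, Utx KO libraries held 95.0%, 85.9% and 92.5% of the regions. PU.1 was called in all 3 Utx KO libraries at 1161 (83.3%, against 93.6% of all 27532 open regions with PU.1 in all 3 Utx WT libraries) and in none at 38 (2.73%, against 0.915%). That share was 5.60% without Utx KO replicate 1 and 3.02% without replicate 2. With 1 Utx WT library at a time left out of the choice, the Utx KO libraries held 82.0% to 93.5% and the left-out Utx WT library 91.0% to 93.2%. Utx KO replicate 2, which has the shortest of the 3 Utx KO lists, gave the lowest share in every such choice, at 82.0% to 83.1%, and the other Utx KO libraries gave 89.5% to 93.5%, which overlap the Utx WT values. Calls were lost mostly at islands of low rank: in the lowest of 5 bins of PU.1 rank 73.5% of regions kept PU.1 on average over Utx KO libraries, and in the highest bin 99.0%. The 38 regions without PU.1 in any Utx KO library had a median percentile of 21.3.

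Among those 38, the region of highest Utx WT rank lay 49692 bp from Nek6, a mitotic kinase gene (chr2:38433806-38434171, percentile 78.9). It was open in both Utx KO empty libraries and in 1 of the 2 KO Smarca4 guide libraries. The next lay 8232 bp from Rnf34, a ubiquitin ligase gene (percentile 63.0), and was open in none of the 4 Utx KO ATAC libraries. The next after that lay 2052 bp from Ndrg2 (percentile 43.3) and was open in 1 library of each Utx KO group. The 38 were open at 76.3% and 81.6% in the Utx KO empty libraries, against 75.9% and 77.1% of the 1161 that kept PU.1 in all 3. With the Smarca4 guide in Utx WT they were at 68.4% and 78.9%, against 77.7% and 82.9%, and in set A empty at 47.4% and 31.6%, against 55.6% and 41.9%.

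H3K4me1 was called at a small share of the regions in Utx KO. The 2 Utx KO libraries marked 11.99% and 11.84%. Both marked 79 (5.67%, against 3.69% of the 7213 open regions with H3K4me1 in neither Utx WT library), and neither marked 1140 (81.8%, against 88.2%). At distal sites with neither PU.1 nor H3K4me1 the 2 Utx KO libraries marked 4.25% and 4.64%. A change cannot be read from these shares alone, since Utx WT was fixed at 0 by the choice. Chosen on Utx WT replicate 2 alone, 1529 regions were marked at 13.7% and 13.8% in Utx KO and at 8.89% in Utx WT replicate 1. Chosen on Utx WT replicate 1 alone, 3094 regions were marked at 34.5% and 40.05% in Utx KO and at 55.0% in Utx WT replicate 2. The 2 Utx WT libraries therefore gave opposite orders. Utx WT replicate 2 covered 284 Mb, against 201 Mb for Utx WT replicate 1, and the Utx KO lists covered 179 and 226 Mb.

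**Figure D2:**
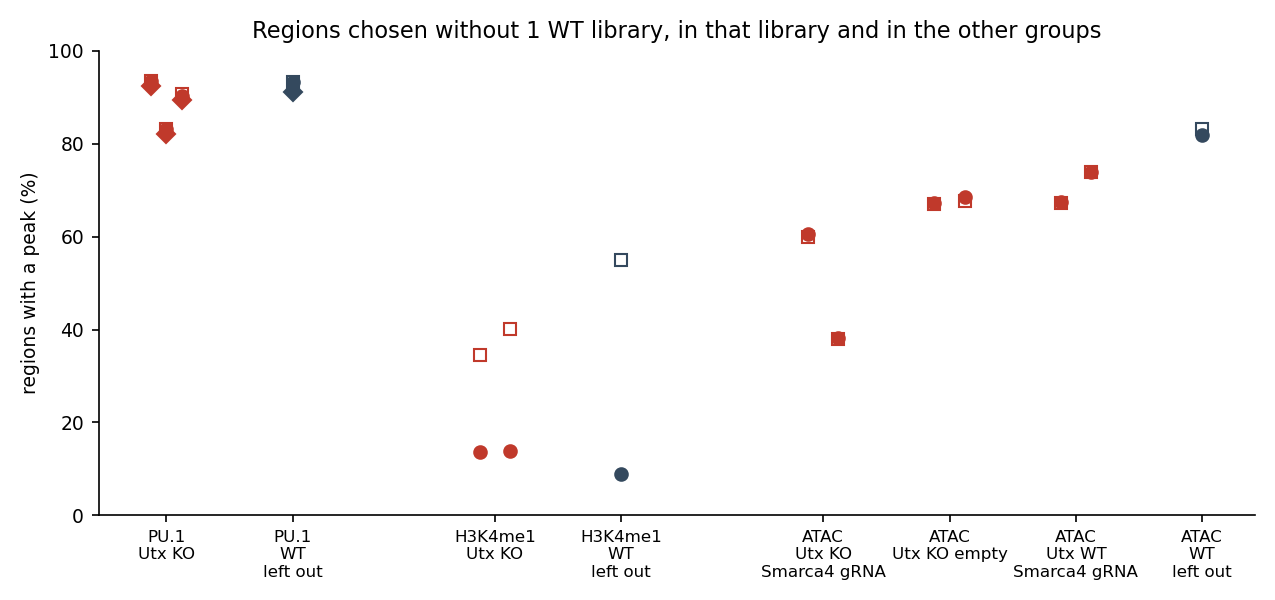
Percent of regions with a peak when 1 Utx WT library was left out of the choice. Red points are the libraries of the other groups and dark points the Utx WT library left out (circle, square and diamond for replicate 1, 2 and 3 left out); ATAC shares in Utx KO and Smarca4 guide libraries lie below the left-out Utx WT libraries, while H3K4me1 shares lie on opposite sides of them.

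Marking in Utx KO was more frequent near islands present in Utx WT. Of the 72 regions within 1 kb of a Utx WT island, 15 (20.8%) were marked in both Utx KO libraries, whereas the share ran between 3.34% and 6.15% in the 4 bins of greater distance. Far from islands the regions were still marked more often than sites with neither mark: at 5 to 20 kb, 6.15% of the regions and 0.892% of the sites with neither were marked in both. The marked region of highest H3K4me1 rank was a 1659 bp region at an internal start of Pan3, a subunit of the PAN2-PAN3 deadenylase (chr5:147429850-147431508), 50 bp from a Utx WT island and open in all 12 ATAC libraries. The next lay in Rasgrf1, a Ras guanine nucleotide exchange factor gene (chr9:89975805-89976380), 805 bp from an island. It was open in the Utx WT empty and Utx WT Smarca4 guide libraries of set B and in no other ATAC library, including both Utx KO empty libraries; its Utx WT state was fixed by the choice. The next lay in Zfp622 (chr15:25993402-25993756), 802 bp from an island, and was open in every library but the 2 with the Chd4 guide.

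Openness in the other ATAC groups is given next, first for Smarca4. The Smarca4 guide in Utx KO cells left 68.8% and 44.7% of the regions open, against 76.0% and 77.1% in Utx KO empty, a difference of -19.8 points (exact permutation test, two-sided, p = 0.333, adjusted p = 0.333, the smallest possible). The groups did not overlap, but the size rested on single libraries: without KO Smarca4 guide replicate 2, which has the short list, the difference was -7.75, and without replicate 1 it was -31.9. With lists of equal length it was -6.24. The same difference was -13.1 at sites with PU.1 and H3K4me1, -19.9 at sites with H3K4me1 alone and -25.0 at sites with neither, so the loss was not particular to these regions. Of the 972 regions open in both Utx KO empty libraries, 119 (12.2%, against 8.24% over all open regions) were open in neither KO Smarca4 guide library, and of the 233 open in neither, 0 opened in both (against 0.962%). In Smarca4-edited cells, Utx KO was open at 68.8% and 44.7% and Utx WT at 77.1% and 82.6%, a difference of -23.2 points (exact permutation test, two-sided, p = 0.333, adjusted p = 0.333). That difference was -11.1 without KO Smarca4 guide replicate 2 and -35.2 without replicate 1, and with lists of equal length it was -11.04. The regions were chosen in Utx WT cells, which favours the Utx WT side here. In the other classes Utx KO minus Utx WT with the Smarca4 guide was -23.8 at sites with both marks, -30.3 with H3K4me1 alone and -28.0 with neither. Of the 1005 regions open in both Utx WT Smarca4 guide libraries, 168 (16.7%, against 14.5%) were open in neither KO Smarca4 guide library, and of the 173 open in neither, 3 (1.73%, against 3.3%) were open in both.

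In Utx WT cells the Smarca4 guide left 1005 regions (72.1%, against 81.4% of all open regions) open in both libraries and 173 (12.4%) open in neither, against 8.14% of all open regions and 6.32% of sites with PU.1 and H3K4me1. At sites with H3K4me1 alone it was 13.8% and at sites with neither 16.8%. The share was 17.4% with replicate 2 alone and 22.9% with replicate 1 alone. Among regions chosen from 1 Utx WT empty library, 67.2% to 74.0% were open with the guide, against 81.9% and 83.1% in the left-out empty library. At the 1334 sites chosen in set A, however, the Utx WT Smarca4 guide libraries were open at 39.9% and 40.6% and the Utx WT empty libraries at 42.0% and 41.5%, a difference of -1.50 points (exact permutation test, two-sided, p = 0.333, adjusted p = 0.333) that turned to 3.17 with lists of equal length. Those sites too were chosen in cells with the empty construct, which favours the empty side. The Rpusd4 region and a 323 bp region in Scmh1, a Polycomb group gene (chr4:120523108-120523430, percentile 95.0), were the highest-ranked of the 173. The Scmh1 region was open in no ATAC library outside the 2 that chose it, while PU.1 was called there in all 3 Utx KO libraries.

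The Chd4 guide was set against the empty construct within set A, at regions chosen in set B cells with the empty construct, which favours the empty side. Regions were open at 37.3% and 18.2% with the guide and at 54.3% and 40.3% with the empty construct, a difference of -19.5 points without overlap (exact permutation test, two-sided, p = 0.333, adjusted p = 0.333). Without Chd4 guide replicate 2, which has the shortest list of all, the difference was -10.0, and with lists of equal length, which also left 489 regions in the choice, it turned to 5.73. Of the 517 regions open in both set A empty libraries, 96 (18.6%) were open in neither Chd4 guide library, against 8.56% over all open regions and 8.69% at sites with PU.1 and H3K4me1. At sites with H3K4me1 alone it was 20.6% and at sites with neither 21.4%, so the loss was not particular to these regions. Of the 593 open in neither empty library, 1 opened in both guide libraries (0.169%, against 0.207%). The highest-ranked regions closed with the guide lay in Arrdc3, an arrestin-domain gene (chr13:80884576-80884915, percentile 99.4), and in Mroh2a (chr1:88228024-88228867, percentile 98.5). Neither rests on a clear contrast, since the Arrdc3 region was open in 1 and the Mroh2a region in 0 of the 2 set A empty libraries.

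**Figure D3:**
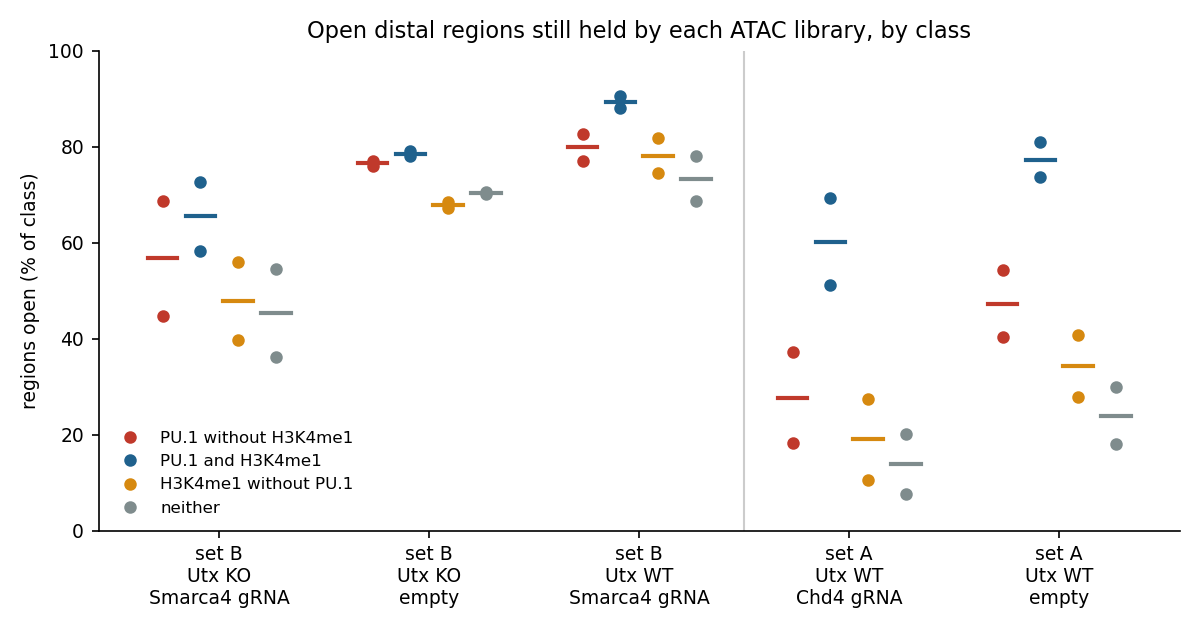
Percent of each class of open distal region with a peak in each ATAC library that did not choose the regions; points are libraries, bars are means of 2 libraries, and the grey line separates set B from set A. The 1393 regions with PU.1 and without H3K4me1 lie below the sites with both in every library, with differences of -1.94 to -33.4 points.

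Over the 10 ATAC libraries that played no part in the choice, the regions were open less often than sites with PU.1 and H3K4me1 and more often than the other classes. The first order did not hold in most set B libraries once widths were matched. The order against the other classes turned in set B libraries when set A made the choice. The mean difference from sites with both was -16.5 points, lower in 10 of 10 libraries (exact sign-flip permutation test, two-sided, adjusted p = 0.00195, the smallest possible with 10 libraries). Weighted to the same widths, it was -4.63 (exact sign-flip permutation test, adjusted p = 0.348). In set B it was then 10.5 and 10.6 in Utx KO empty, 10.5 and 4.76 in KO Smarca4 guide, and -0.684 and 1.20 in Utx WT Smarca4 guide libraries. In set A it was -18.7 and -24.1 in the empty and -20.1 and -20.4 in the Chd4 guide libraries. Against sites with H3K4me1 alone the regions were open more often by 8.18 points in 10 of 10 libraries, and against sites with neither by 12.3 points in 10 of 10 (exact sign-flip permutation tests, adjusted p = 0.00195 each). With the width weights these differences were 12.6 and 12.5. All 10 shares are over regions chosen in the same 2 libraries, and the libraries are not 10 independent conditions. With the same classes chosen by openness in both set A empty libraries and measured in the 8 set B and 2 Chd4 guide libraries, the difference from sites with both was -21.4 points, that from sites with H3K4me1 alone -21.6 and that from sites with neither -5.82 (exact sign-flip permutation tests, two-sided, adjusted p = 0.00586, 0.00586 and 0.0273). These means pool libraries that differed. From sites with H3K4me1 alone the difference was -30.3 to -22.6 in set B libraries and -6.55 and 4.82 with the Chd4 guide. From sites with neither it was -11.0 to -7.02 in set B libraries and 5.18 and 8.02 with the Chd4 guide. In Utx KO empty of set B, for example, the 1334 sites were at 36.4% and 35.8%, against 62.9% and 63.4% of sites with H3K4me1 alone and 47.2% and 46.8% of sites with neither. In Utx WT empty of set B they were at 42.0% and 41.5%, against 70.8% and 71.8% with H3K4me1 alone and 50.7% in each library with neither. Without width weights, the lower openness than at sites with both thus held for either choice. The higher openness than in the other classes did not hold in set B libraries under the set A choice. Against sites with neither, it did hold in the 2 Chd4 guide libraries. Width weights were not applied to the set A choice.

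Openness of the regions also differed between the cell sets. In set A, 549 (39.4%) were open in none of the 4 libraries. That share was 15.8% at sites with PU.1 and H3K4me1, 54.9% with H3K4me1 alone and 65.3% with neither. Of the regions, 112 (8.04%) were open in all set B libraries and in no set A library. The same pattern was seen at 2.75% of sites with both, 10.05% with H3K4me1 alone and 12.2% with neither. It was thus not particular to these regions. Only 150 of the regions (10.8%) were open in all 12 libraries, against 36.2% of all open regions and 37.2% of sites with both. The gap between the regions and sites with both averaged -31.2 points over the 4 set A libraries (-33.4 to -26.8) and -6.73 over the 6 set B libraries (-13.6 to -1.94). With sites chosen in set A, the gap was -20.9 and -24.1 in the Chd4 guide libraries and -24.8 to -17.3 in the 8 set B libraries, so the difference between the sets was not seen under that choice. The sets also differ in the granulocyte and myeloid marker peaks given above, and the part these have was not tested. Conversely, of the 1334 sites with the same marks chosen in set A, 519 (38.9%) were open in both set B Utx WT empty libraries.

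Some regions were open in every library. A 1734 bp region at internal starts of Gabpb1, a subunit of the ETS-family complex GABP, lay 11 bp from a Utx WT H3K4me1 island and had a PU.1 percentile of 98.6 (chr2:126674456-126676189). A 435 bp region lay 1625 bp from Myc, a growth-promoting transcription factor gene, 2084 bp from an island (chr15:61983282-61983716, percentile 98.3). A 719 bp region at an internal start of Jmjd1c, a Jumonji-domain gene, lay 4 bp from an island (chr10:67185478-67186196, percentile 97.7). All 3 were open in 12 of 12 ATAC libraries and had PU.1 in all 3 Utx KO libraries, and those at Myc and Jmjd1c had H3K4me1 in both Utx KO libraries. Zeb2, which encodes a zinc-finger repressor, and Zfp958 held the 2 other regions that ranked with Acoxl and Arrdc3 at the top of PU.1 (percentiles 99.9 and 98.8), and both were open in 12 of 12 libraries.

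Width tracked openness in every group. In the narrowest of 5 width bins (210 to 319 bp), 30.6% were open in KO Smarca4 guide, 55.4% in Utx KO empty and 50.4% in Utx WT Smarca4 guide cells, as means of 2 libraries. In the widest bin (602 to 2699 bp) the same groups were at 82.2%, 92.9% and 97.5%. In set A, the Chd4 guide ran between 12.01% and 52.0% and the empty construct between 32.6% and 66.0%. PU.1 rank differed little over width, with medians of 50.2 in the narrowest bin and 49.2 in the widest. PU.1 rank itself went with little change in set B, where 74.9% of the lowest and 76.0% of the highest rank bin were open in Utx KO empty. In set A empty those shares were 38.7% and 58.8%.

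**Figure D4:**
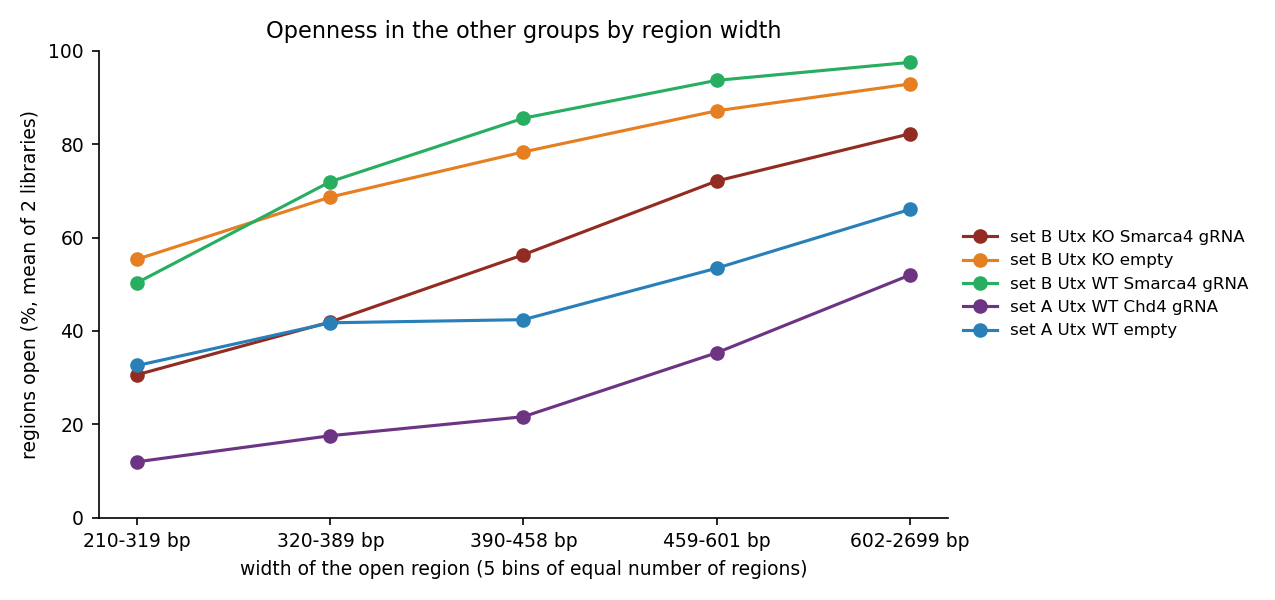
Percent of the 1393 regions open in each group (mean of 2 libraries), by width in 5 bins. The widest bin was open most often in all 5 groups, at 97.5% in Utx WT Smarca4 guide cells and 52.0% with the Chd4 guide.

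Regions with H3K4me1 calls in both Utx KO libraries were open more often in most groups. Of the 79 marked in both Utx KO libraries, 73.4% and 69.6% were open in the set A empty libraries, against 50.9% and 35.8% of the 1140 marked in neither. In the Utx KO empty libraries the marked regions were at 83.5% and 75.9% and the unmarked at 75.4% and 77.0%. With the Smarca4 guide the marked were at 77.2% and 60.8% and the unmarked at 67.7% and 42.8% in Utx KO cells. In Utx WT cells with that guide the marked were at 89.9% and 94.9% and the unmarked at 76.2% and 82.0%. The marked regions were wider, with a median of 502 bp against 422 bp.

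By nearest protein-coding gene, the regions fell at 1199 genes, of which 149 had 2 or more. Efnb2, which encodes the ligand ephrin-B2, had 5 of its 15 open distal sites among them, none inside the gene. Its 2 regions 22960 and 13890 bp away were open in 12 of 12 libraries, while the region 11977 bp away was open in 5 of 12 and in no set A library. Arhgap18 had 4 of 20, Dgki, a diacylglycerol kinase gene, 4 of 21, and Kcnq5, a potassium channel gene, 4 of 11. Ptprg, a receptor phosphatase gene, also had 4, of 21. Dkk2, a secreted Wnt inhibitor gene, had 4 of its 8 open distal sites among the regions. All 4 kept PU.1 in all 3 Utx KO libraries and had a peak in neither set A empty library. All 4 Kcnq5 regions carried H3K4me1 in at least 1 Utx KO library, and 2 in both.

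Few of the regions lay nearest to listed genes. Of 300 genes in 17 lists, 40 regions lay nearest to a listed gene (2.87%, against 4.16% of all open distal regions). At 20 granulocyte genes there were 0 regions among 20 open distal sites, at 18 adhesion genes 0 among 68, and at 16 housekeeping genes 0 among 33; the regions were 4.50% of all open distal sites, so lists of so few sites would hold few of them. The 16 ETS factor genes had 1 region among 129 open distal sites, at Ehf, and the 16 C/EBP, IRF and Ikaros genes 1 among 89, at Ikzf2.

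Lists ranged up to 9.30% (erythroid, 4 of 43, all at Bcl11a), with 3.08% at stem cell regulators (4 of 130), against 4.50% of all open distal sites. Meis1, a stem cell homeobox gene, had 2 regions among 30 open distal sites, and the one 115900 bp away was open in both set A empty libraries, in 1 of 2 Utx KO empty libraries and in neither library of either Smarca4 guide group. Kit, the stem cell factor receptor, had 1 of 22, open in 11 of 12 libraries. Mitf, a factor needed for mast cells, had 3 of 26; these were open in 12, 10 and 7 libraries and kept PU.1 in all 3 Utx KO libraries. Cpa3, a mast cell protease gene, had 1 region inside its span, at PU.1 percentile 91.2 and open in 11 libraries. Of the 72 open distal sites at mast cell and basophil genes 5 were such regions (6.94%), and 0 of the 5 closed in both Utx KO empty libraries. Over all open regions 15.5% closed there, so 5 regions are too few to show a difference.

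Among genes of other lineages, Bcl11a, the repressor of fetal globin, had 4 of 17 open distal sites, 520494 to 550902 bp from its span. They were open in 2, 3, 8 and 7 of 12 libraries and in no set A library. Gata3, a T cell regulator, had a region 55224 bp away with a PU.1 percentile of 94.4. It had no peak in the Utx KO Smarca4 guide, Utx KO empty and Utx WT Smarca4 guide libraries, and had one in both Chd4 guide and both set A empty libraries. Nrp1, a semaphorin and VEGF co-receptor, had 3 of 16, of which 1 lacked PU.1 in every Utx KO library and 1 was open in no ATAC library outside the 2 that chose it. Of the monocyte and macrophage genes, Zeb2, Tlr4 and F13a1 had 1 each; the F13a1 region was open in neither Utx KO empty library and the other 2 in both. Klf6 had 2, both open in 12 of 12 libraries, and Csf2ra, a GM-CSF receptor subunit gene, had 1, open in 12 of 12 and marked by H3K4me1 in both Utx KO libraries. Cdkn1b, a cell-cycle inhibitor gene, had 1 region 2607 bp away at the start of the lncRNA Lockd, 17 bp from an H3K4me1 island and open in 12 of 12 libraries. Arid1a, a BAF subunit gene, had 1 inside its span, open in 11.

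**Figure D5:**
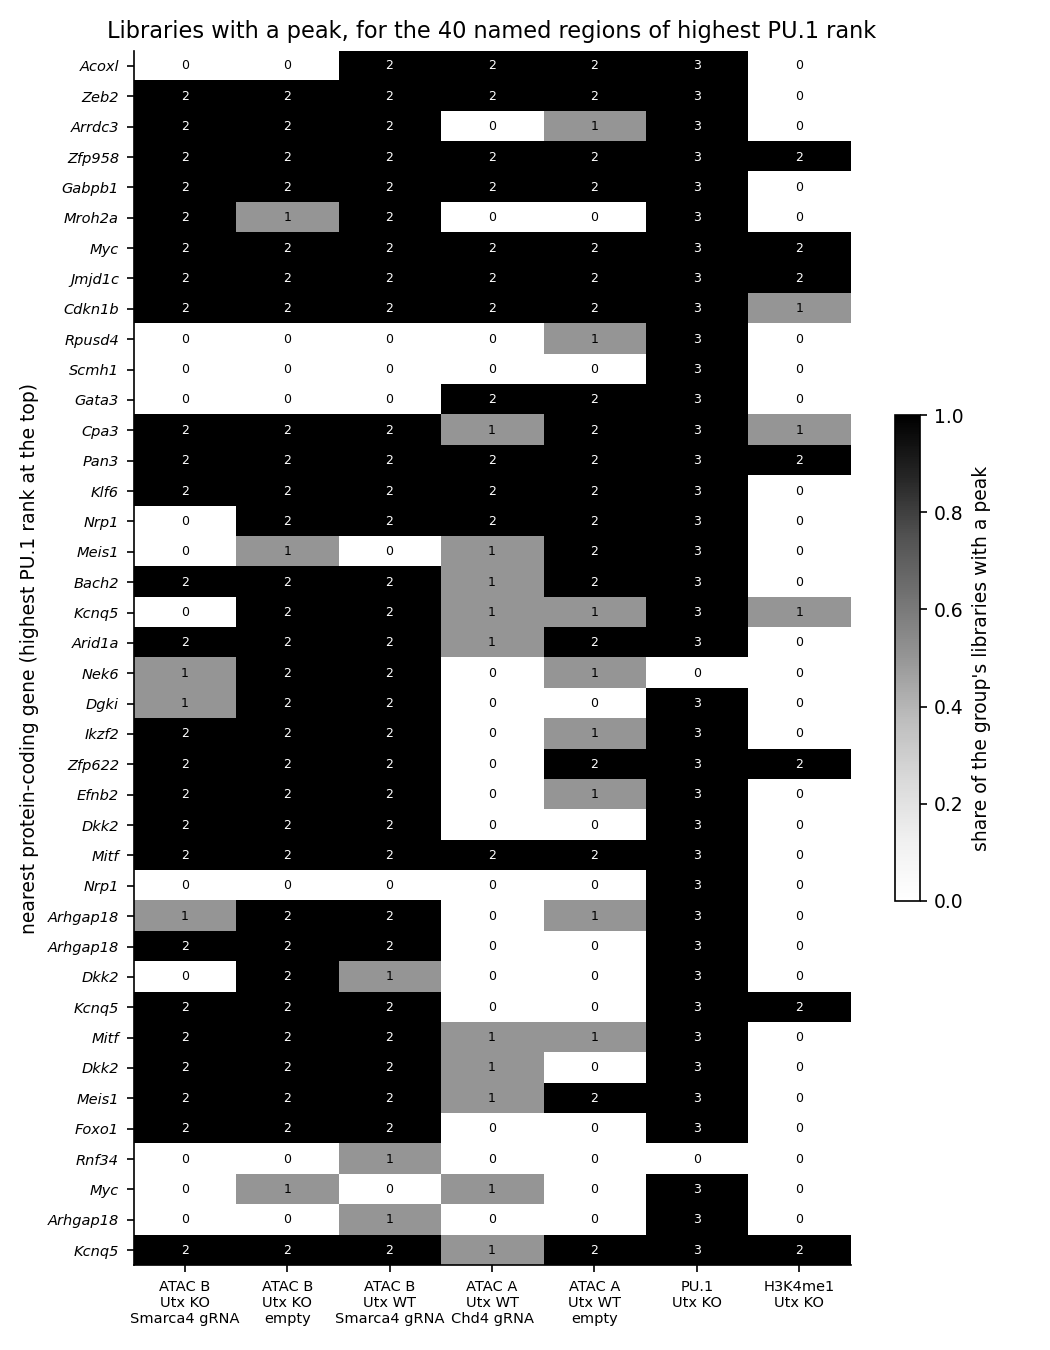
Number of libraries with a peak (figures in the cells, of 2 for ATAC and H3K4me1 groups and 3 for PU.1) for the 40 named regions of highest PU.1 rank, labelled by nearest gene, with grey shade for the share of the group's libraries. PU.1 in all 3 Utx KO libraries is held at 38 of the 40, including regions such as Acoxl and Scmh1 that have no ATAC peak in Utx KO. The 40 were drawn for high PU.1 rank, and over all 1393 regions the share was 83.3%.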

How the data were processed

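Of 24 samples, 22 gave a peak list (12 ATAC-seq and 10 ChIP-seq); the 2 input samples were not analysed here. The submitters' processing notes name Bowtie, Bowtie2, SICER and MACS2 and build mm10; versions and settings were not given in the sources used here. The deposited ChIP lists give a position and a whole-number score per island, which was used only to rank islands within a list (as a percentile), and other deposited lists, those of ATAC, give positions alone. Peaks were listed per library. Read depth is unknown, so no interval or detection floor is given.

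From the lists, a region was called open, or as holding PU.1 or H3K4me1, in a library where 1 base or more overlapped a peak. Genes are the nearest of 21887 protein-coding RefSeq spans. Shares of regions were compared over libraries, with exact permutation tests of 2 against 2 libraries and exact sign-flip permutation tests over 10, Benjamini-Hochberg adjusted, at a threshold of 0.05. Comparisons whose Utx WT libraries chose the regions are descriptions. Samples were not paired, since region by region same-numbered replicates did not deviate together (correlations of -0.0245 to 0.0723). Those correlations do not speak to library shares. In set A replicate 1 was open more often than replicate 2 in both groups, at 54.3% and 40.3% with the empty construct and 37.3% and 18.2% with the Chd4 guide. A replicate block is given below as an alternative. Genes and regions are named by rank and count: the 6 genes with most regions (ties by symbol; Ptprg ties with 5 of them), the highest PU.1 or H3K4me1 ranks in each outcome, and up to 2 genes per list; Gata3, F13a1, Csf2ra, Ikzf2, Ehf, Kit, the promoter windows and regions not so ranked were named after their values were seen. The regions and lists were chosen with earlier results of these data known. Scripts used Python 3.11.15, numpy 2.4.6, pandas 2.3.3 and matplotlib 3.10.9 and were tested on simulated data.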

Additional observations from a re-analysis of the deposited data

How the results depend on the processing

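The comparisons were recomputed under 130 combinations of comparison and setting: upper 50% of every list, lists of equal length, 50% cover, more than 5 kb from a gene end, no island within 5 kb, width weighting in 5 bins, the replicate block, each library left out and, added after seeing the data, classes chosen in set A. The upper 50% and equal length settings kept the ChIP islands of highest score and the widest ATAC peaks, and the regions were then chosen again. They are therefore not a correction of list length alone. In 109 the direction and side of the threshold, or the value within its spread, were kept. Many of these could not have come out otherwise. The 5 differences between 2 groups can never pass the threshold, and the replicate block cannot change their values. The 3 class differences had the same sign in 10 of 10 libraries, so leaving a library out could not turn them. The count is therefore not a measure of robustness. With lists of equal length the choice held 489 regions, and 3 differences turned: Chd4 guide minus empty to 5.73, and, at sites chosen in set A, Utx KO empty minus Utx WT empty to 2.51 and Utx WT Smarca4 guide minus empty to 3.17; there the share closed in Utx KO empty was 9.20%, that closed with the Smarca4 guide in Utx WT 4.91%, and that marked by H3K4me1 in Utx KO 17.996%. The cause was not tested. In the upper 50% of lists the share closed in Utx KO empty was 17.6% and that marked 7.13%. With 50% cover the shares were 19.8% closed in Utx KO empty, 9.19% without PU.1 in Utx KO and 4.88% marked. With no island within 5 kb (904 regions) 4.87% were marked. Width weighting took the difference from sites with PU.1 and H3K4me1 to -4.63 (exact sign-flip permutation test, adjusted p = 0.348). With classes chosen in set A the mean difference from sites with H3K4me1 alone turned to -21.6 and that from sites with neither to -5.82. In the Chd4 guide libraries the difference from sites with neither did not turn, at 5.18 and 8.02. The cause was not tested.

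With single libraries left out, the share closed in Utx KO empty was 22.9% to 24.0%, closed with the Smarca4 guide in Utx WT 17.4% to 22.9% and marked 11.84% to 11.99%, since 1 library then decides each of these calls; the share without PU.1 in Utx KO was 3.02% to 5.60%. The replicate block left the 5 differences between 2 groups as they were, for example -19.8 for KO Smarca4 guide minus KO empty, with an exact p of 0.5, the smallest that 2 pairs allow. List length and the lack of read depth limit all calls of absence.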
